A study of Mus musculus with 3 samples.

Results

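The extracellular matrix, the proteases that cut it and the inhibitors that hold those proteases in check were examined as a set of genes chosen by symbol: collagens, laminins, nidogens, fibulins, thrombospondins, lumican, lysyl oxidases, MMP, ADAM and ADAMTS family members, TIMPs, serpins and IGF binding proteins. The serpin gene Serpini2 was left out by name. The probe annotation lists 72 such genes on 89 probes. A value on all 3 arrays was present for 45 of them, on 52 probes, out of 6077 genes measured in that way in all. The symbol rule itself uses no measured value apart from that condition, but it was chosen with earlier results of these data known.

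The arrays compared purchased mouse spleen total RNA, labelled red with Cy5, with a purchased Universal Mouse Reference RNA (UMRR), which pools the RNA of several mouse cell lines and was labelled green with Cy3. All 3 arrays form 1 group and carry the same pair of products in the same dyes, so the spread between them may be technical, a dye effect cannot be told apart from a difference between the RNAs, and the p-values say nothing of other spleens. Strain, age, sex and treatment of the animals and the identity of the cell lines are not given in the labels used. The deposited value is a signed log ratio, with no log base or numerator named. Positive values were read as probably higher in spleen, because the red dye is by custom the numerator and because spleen markers lay on that side: 4 of 4 measured B cell markers were positive and past the test, as were 4 of 5 T cell markers (Cd3d was negative), 2 of 2 red pulp macrophage markers, 3 of 3 neutrophil markers and 2 of 2 platelet markers. Of all measured genes 33.2% were positive and past the test. The macrophage markers Vcam1, Cd68, Csf1r and C1qa, the neutrophil marker Mpo and the platelet marker Ppbp lacked a value on at least 1 array. The sample titles name the reference first, which could mean the opposite order. Of 11 measured pancreatic acinar markers 10 were also positive, with a median log ratio of 4.04. An exact 0, deposited for 24.2% to 26.8% of the 16273 probes per array, was read as no measurement, and such a gene is not to be read as unexpressed. In RNA from bulk tissue, fewer cells of a type and less RNA per cell cannot be told apart.

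The matrix is built from fibril-forming collagens, from basement membranes in which laminin trimers and type IV collagen networks are bridged by nidogens, and from glycoproteins that connect fibres and cells. Metalloproteinases of the MMP, ADAM and ADAMTS families cut matrix and cell surface proteins and are blocked by TIMPs, while serpins trap serine proteases and IGF binding proteins carry insulin-like growth factors in the fluid and matrix around cells. In the spleen, reticular fibroblasts wrap collagen fibres into conduits, and a discontinuous basement membrane surrounds the sinuses of the red pulp. Cultured mesenchymal lines are known as rich sources of matrix transcripts.

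The RefSeq table of transcription starts (GRCm38.p6) holds 31 of the 45 genes, and the bases before the start are shown for the member with the highest ratio (Igfbp3), the one with the lowest (Lamb1), and for an inhibitor and a protease of opposite function, Timp3 and Mmp13, whose ratios were both strongly negative. Each sequence is the 250 bases before the start, 5′ to 3′ on the strand of the gene, and capitals mark matches on either strand to a TATA box (TATAAA), an AP-1 site (TGANTCA) or a GC box (GGGCGG). Igfbp3 lies at chr11:7213924-7214173 on the minus strand, Lamb1 at chr12:31265043-31265292, Timp3 at chr10:86300162-86300411 and Mmp13 at chr9:7272264-7272513, all 3 on the plus strand.
Igfbp3: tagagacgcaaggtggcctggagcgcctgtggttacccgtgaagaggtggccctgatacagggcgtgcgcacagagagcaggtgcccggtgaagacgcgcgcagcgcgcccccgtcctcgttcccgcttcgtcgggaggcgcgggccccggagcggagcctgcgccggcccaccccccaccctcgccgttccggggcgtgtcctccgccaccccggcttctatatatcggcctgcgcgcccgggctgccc
Lamb1: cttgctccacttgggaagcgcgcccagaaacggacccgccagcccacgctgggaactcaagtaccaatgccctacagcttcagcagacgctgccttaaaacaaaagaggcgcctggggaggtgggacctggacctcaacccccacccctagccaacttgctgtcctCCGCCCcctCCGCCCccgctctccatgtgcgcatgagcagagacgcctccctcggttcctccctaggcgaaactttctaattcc
Timp3: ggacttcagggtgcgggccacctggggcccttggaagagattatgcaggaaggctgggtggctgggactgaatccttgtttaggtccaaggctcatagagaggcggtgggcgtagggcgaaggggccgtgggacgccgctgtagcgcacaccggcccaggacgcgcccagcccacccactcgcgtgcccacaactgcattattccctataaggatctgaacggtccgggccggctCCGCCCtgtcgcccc
Mmp13: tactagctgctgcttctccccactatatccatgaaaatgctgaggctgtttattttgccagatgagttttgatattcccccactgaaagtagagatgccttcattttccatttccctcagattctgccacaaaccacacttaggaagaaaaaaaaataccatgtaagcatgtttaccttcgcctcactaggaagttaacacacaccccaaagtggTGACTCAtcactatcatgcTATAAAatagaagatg
The Mmp13 window held a TATA box starting 16 bases before the annotated start and an AP-1 match starting 35 bases before it. That of Lamb1 held a GC box on the opposite strand at 84 and again at 75 bases, and that of Timp3 a single one at 15 bases. None of the 3 motifs occurred in the Igfbp3 window, which says only that these letters are not in it. Among the 31 matched genes, TATAAA was present for 5 (16.1%), TGANTCA for 3 (9.68%) and GGGCGG for 12 (38.7%), against 12.4%, 6.75% and 32.7% of all 32851 windows of that length. A member counted if any of its windows held the motif, while the background is a share of windows, which number 32851 for 27025 genes. The percentages are therefore not like for like. These matches are descriptions of sequence, and no binding was measured.

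Matrix genes and their regulators lay on both sides of 0, with more called negative than positive. Negative is the side of the reference under the probable reading, and the side of spleen if the ratio runs the other way. Of the 45 genes, 24 were negative and past limma's test against 0 (Benjamini-Hochberg adjusted p under 0.05 over all 6077 genes), 13 were positive and past it, and 8 missed it. Over all genes 37.1% were called negative and 33.2% positive. The members' share of 53.3% negative lay above that of all genes, while their 28.9% positive lay near it. Large negative ratios were more frequent than among all genes: 14 members had a called mean of -1 or lower (31.1%, against 6.58% of all genes). A called mean of 1 or higher was present for 5 members, a share near that of all genes (11.1%, against 7.57%). The median mean ratio was -0.22 for the members and -0.033 for all genes. These are counts over a chosen list, with no test of the list. The 37.1% and 33.2% of all genes are also the background for each smaller count of calls below. Against a 1.5-fold change in base 2, 16 members stayed past the test on the negative side and 6 on the positive side, where 9.58% and 10.3% of all genes were called. The 15 called members that did not pass that stricter test were Adam5, Adam10, Adam21, Adam25, Adam39, Adamtsl5, Col20a1, Col25a1, Fbln2, Igfbp5, Igfbpl1, Loxl4, Mmp23, Serpina3i and Serpinb9b.

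**Figure D1:**
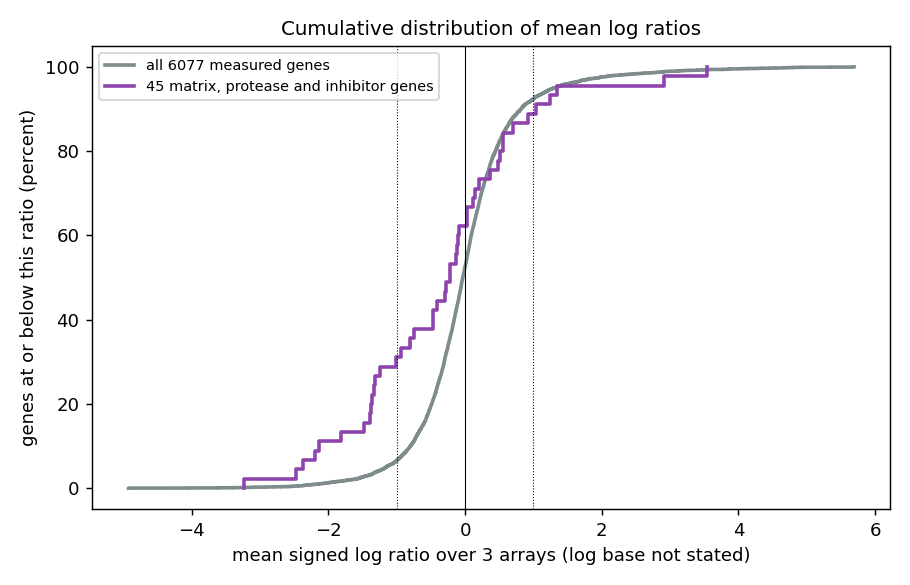
Cumulative percent of genes at or below a given mean signed log ratio over 3 arrays, for all 6077 measured genes and for the 45 matrix, protease and inhibitor genes, with dotted lines at -1 and 1. The members' curve runs above that of all genes to the left of 0, where 14 members lie at -1 or lower. On the right, 5 members (11.1%) have a called mean of 1 or higher, beside 7.57% of all genes.

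The arrays agreed in sign for 41 of the 45 members (82.6% of all genes had the same sign on all 3 arrays), and the median SD over the arrays was 0.12, beside 0.11 for all genes. Array 2 gave the lowest ratio for 21 members (46.7%, beside 37.0% of all genes) and for 8 of the 14 members at -1 or lower. The part of probe position in these ratios was not tested beyond 2 alternatives. Each subtracted the median ratio of the probe itself and its neighbours, up to 5 or up to 20 numbers away in both directions. These are called the narrow and the wide neighbour correction below. They can remove real ratios too, and they give 0 where a probe is its own median. A further alternative kept 0 as a value, which raised the genes tested to 7984 and changed the variance moderation for all. A call could end there for a gene with no 0 and an unchanged mean. This was so for Adam10, Adam21, Adam39, Col20a1, Fbln2, Igfbp5, Loxl4 and Mmp23.

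**Figure D2:**
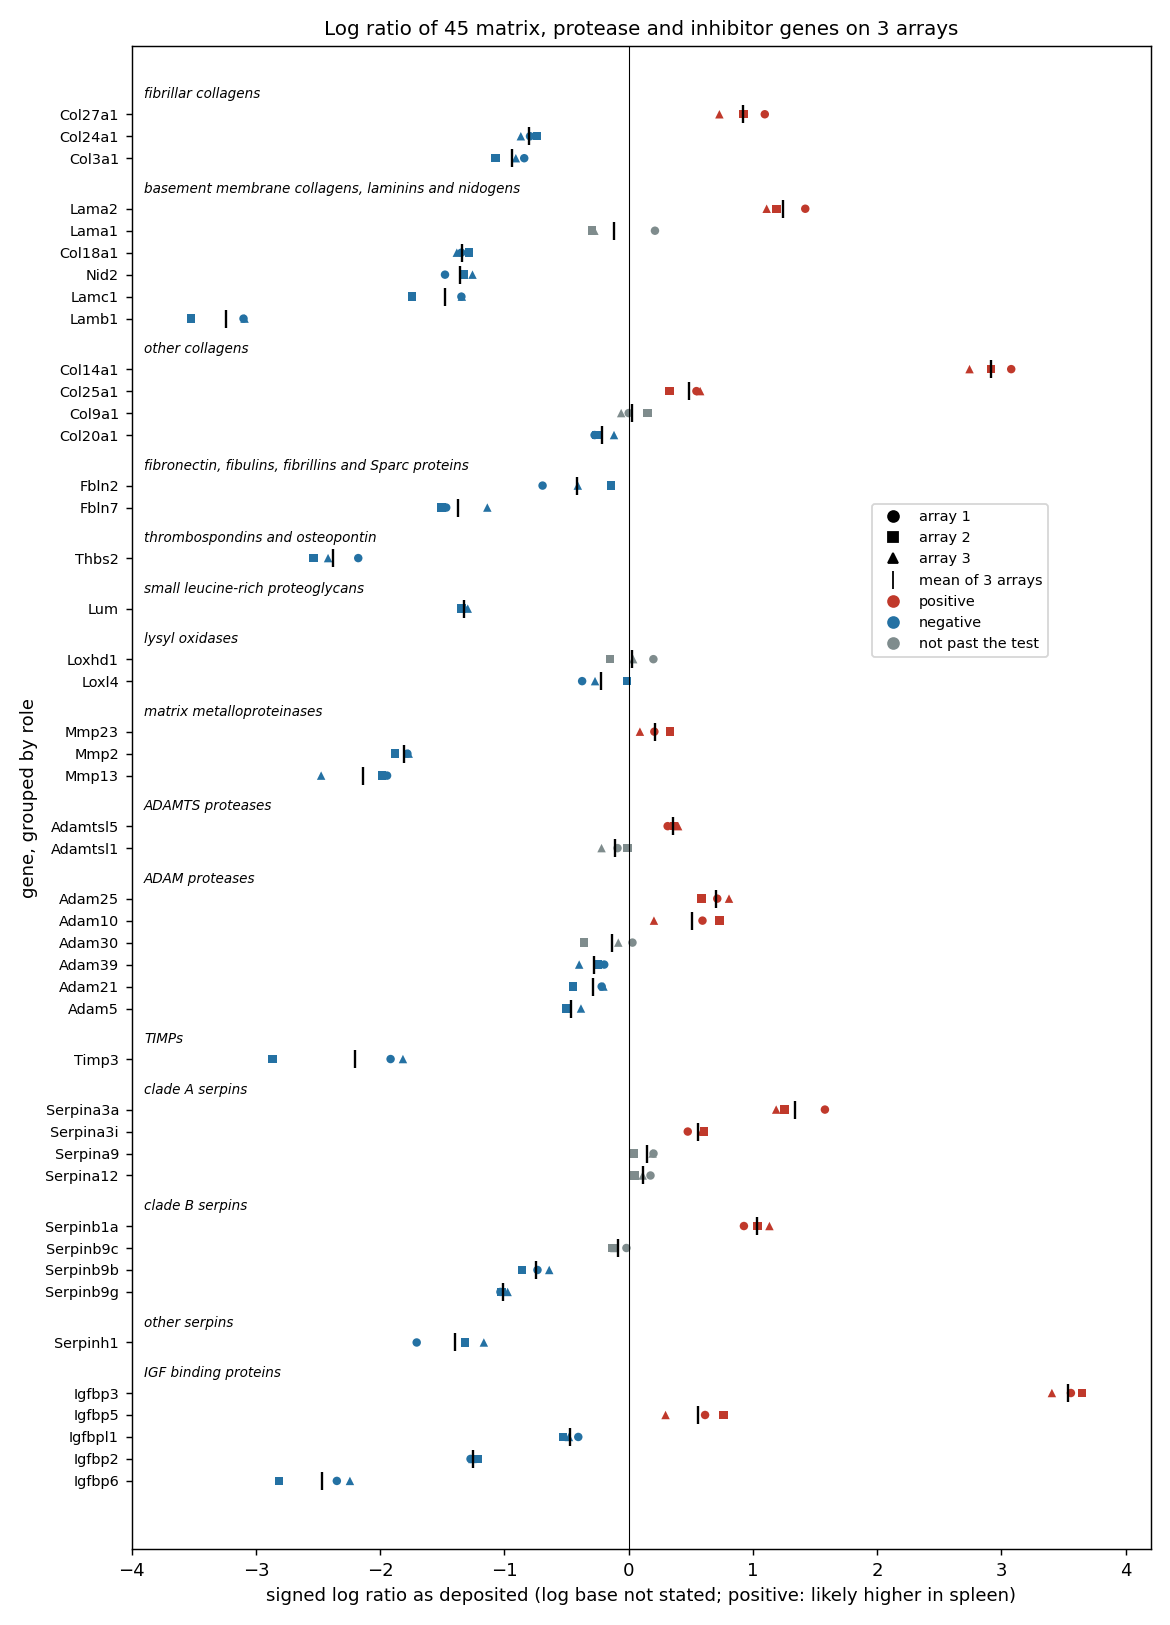
Signed log ratio, as deposited, of each of the 45 measured genes on arrays 1 to 3 (circle, square, triangle) with the mean of the 3 arrays as a black tick, grouped by role and coloured by the limma call. Igfbp3 and Col14a1 stand far to the right at 3.54 and 2.91, and Lamb1 lies farthest to the left at -3.24, with its array 2 value below the others.

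Basement membrane genes were mostly negative: 4 of 6 were called negative and 1 positive, 1 missed the test, and the median was -1.35. Over all genes 37.1% were called negative. Lamb1, the beta chain of most laminin trimers of early and vascular basement membranes, had log ratios of -3.10, -3.52 and -3.09 on arrays 1 to 3. Its mean of -3.24 ± 0.25 (SD, n = 3) was the lowest of all members, with a limma adjusted p of 3.06e-07, and corresponds to 9.43-fold if the base is 2 or 25.5-fold if the logs are natural. This rests on 1 of 3 listed probes, since the others held 0 on every array, and the mean was -1.08 with 0 kept. Lamc1, the gamma chain that pairs with it in the same trimers, had -1.35, -1.74 and -1.34, with a mean of -1.48 ± 0.23 (SD, n = 3). As for Lamb1, array 2 was the lowest and the other two lay close together. Every Lamb1 value lay below every Lamc1 value, a difference that was not tested. Both measured Lamc1 probes were negative, at -1.82 and -1.14, and with the third probe kept at 0 the mean was -0.98.

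Nid2, a nidogen that bridges laminin and collagen networks, had -1.48, -1.33 and -1.26. Col18a1, a basement membrane collagen whose end fragment is endostatin, had -1.35, -1.29 and -1.38. Both had narrow spreads, with means of -1.35 ± 0.11 and -1.34 ± 0.048 (SD, n = 3). Lama2, the alpha chain of muscle and nerve laminin, went the other way with 1.42, 1.19 and 1.11 and a mean of 1.24 ± 0.16 (SD, n = 3). All its arrays were positive, although the mean was only 0.30 after the narrow neighbour correction (limma adjusted p = 0.00881). Lama1, the alpha chain of embryonic laminin, had a mean of -0.12 with signs that differed between arrays (0.21, -0.29 and -0.28), and it did not pass except without array 1 (-0.28, limma adjusted p = 0.0309). Markers of epithelial cells, which rest on basement membrane, were called negative in 4 of 4 measured genes, beside 37.1% of all genes. They were the keratins Krt14 (-1.06) and Krt5 (-0.49) and the tight junction proteins Ocln (-0.90) and Cldn7 (-0.71). The call of Krt5 ended without moderation (adjusted p = 0.108) and with 0 kept (limma adjusted p = 0.0796). Their part in the basement membrane ratios was not tested.

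Collagens outside the basement membrane were split. Col14a1, a collagen that decorates the surface of fibrils, had 3.08, 2.92 and 2.74, with a mean of 2.91 ± 0.17 (SD, n = 3), which is 7.53-fold in base 2 or 18.4-fold in natural logs. This was the second highest ratio of the set, with a limma adjusted p of 2.20e-07. Its probes agreed in direction and not in size: one had 4.96, 4.64 and 4.40 and the other 1.20, 1.19 and 1.09. Taking the probe with the smaller SD gives 1.16. Col3a1, a major fibrillar collagen of reticular fibres, had -0.84, -1.07 and -0.91, with a mean of -0.94 ± 0.12 (SD, n = 3). Here 1 probe was at -1.70 and past the probe test, another at -0.18 was not (limma adjusted p = 0.0676 over 11086 probes, of which 68.3% passed), and the third held 0 on every array.

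The minor fibrillar collagens of cartilage and bone pointed in opposite directions. Col27a1 had 1.10, 0.92 and 0.73, with a mean of 0.92 ± 0.18 (SD, n = 3). Col24a1 had -0.79, -0.74 and -0.87, with a mean of -0.80 ± 0.064 (SD, n = 3). Their values did not overlap, and each lay on 1 side of 0 on all 3 arrays. Col25a1, a membrane-spanning collagen of neurons, had 0.55, 0.33 and 0.58. Its mean of 0.48 lost its call without moderation of the variance (adjusted p = 0.0532) and was 0.28 after the wide neighbour correction. Col20a1, a relative of Col14a1, had -0.27, -0.26 and -0.12, with a mean of -0.22. Its call ended without array 1 (-0.19, limma adjusted p = 0.122) and without array 2 (-0.20, limma adjusted p = 0.0583), as well as with 0 kept (limma adjusted p = 0.0577), without moderation and at the stricter threshold of 0.01. Col9a1, a cartilage collagen, had a mean of 0.030 and did not pass, but was positive and called after the narrow (0.30) and wide (0.23) neighbour corrections.

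Of the thrombospondins, fibulins and lumican that the symbol rule takes in, 4 had values and all 4 were called negative. Other matrix glycoproteins and proteoglycans, outside the rule, lay on both sides and are given further down. Thbs2, a matricellular thrombospondin that restrains blood vessel growth, had -2.18, -2.54 and -2.42, with a mean of -2.38 ± 0.18 (SD, n = 3), or -1.46 after the narrow neighbour correction. Lum, lumican, a proteoglycan that spaces collagen fibrils, had -1.33, -1.34 and -1.30. Its SD of 0.026 was the smallest of any member. Fbln7, a fibulin with a role in cell adhesion, had -1.47, -1.51 and -1.14, with a mean of -1.37 ± 0.20 (SD, n = 3). Fbln2, a fibulin that binds laminin and fibronectin, had -0.69, -0.14 and -0.41. These arrays were far apart, and its mean of -0.42 lost its call without array 1 (-0.28, limma adjusted p = 0.0575), without moderation (adjusted p = 0.166), with 0 kept (limma adjusted p = 0.139) and after the narrow neighbour correction (-0.078, limma adjusted p = 0.352).

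Crosslinking enzymes gave little. Loxl4, a lysyl oxidase relative, had -0.37, -0.012 and -0.27. Its mean of -0.22 passed with a limma adjusted p of 0.049999, just under the threshold, and lost its call under 15 of the 16 alternatives, the exception being the fit without array 2. It was -0.14 without array 1 (limma adjusted p = 0.271) and -0.19 without array 3 (limma adjusted p = 0.140). Loxhd1 met the symbol rule but is a protein of inner ear hair cells and no lysyl oxidase. It had a mean of 0.029 and did not pass. Serpinh1, the collagen chaperone of the endoplasmic reticulum and a serpin by fold that inhibits no protease, had -1.71, -1.32 and -1.17, with a mean of -1.40 ± 0.28 (SD, n = 3). All arrays were negative, and the mean was -0.52 and -0.87 after the narrow and wide neighbour corrections and -0.88 with 0 kept. A second Serpinh1 probe had a value on array 3 only, at -1.11.

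Secreted matrix metalloproteinases and the 1 measured TIMP were both far on the negative side. Mmp13, a collagenase of cartilage and bone, had -1.94, -1.98 and -2.48, with a mean of -2.13 ± 0.30 (SD, n = 3). Mmp2, the gelatinase of connective tissue cells, had -1.78, -1.88 and -1.77, with a mean of -1.81 ± 0.061 (SD, n = 3). The limma adjusted p-values were 3.49e-06 and 6.14e-07. Timp3, the inhibitor that stays bound to the matrix and blocks MMPs and several ADAMs, had -1.92, -2.87 and -1.82. Its SD of 0.58 around a mean of -2.20 (n = 3) was the largest of any member and came from array 2, yet all arrays were far below 0 (limma adjusted p = 4.47e-05). Mmp23, a membrane-anchored member, had 0.21, 0.33 and 0.091. Its mean of 0.21 was the smallest called in the set. The call ended without array 1 (0.21, limma adjusted p = 0.114), without array 2 (0.15, limma adjusted p = 0.115) and after the wide neighbour correction (0.055). It also ended with 0 kept, without moderation and at the threshold of 0.01. The narrow correction gave 0 because it subtracted the probe's own ratio.

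ADAM proteases had small ratios. Adam10, the sheddase that releases Notch and many other membrane proteins, had 0.59, 0.73 and 0.20. Array 3 was well below the others. The Adam10 mean of 0.51 ± 0.27 (SD, n = 3) lost its call without moderation (adjusted p = 0.126). With 0 kept the call ended too (limma adjusted p = 0.0972), although Adam10 had no 0 and its mean was unchanged. The wide neighbour correction gave 0.80. The other 5 measured ADAM genes are known mainly from testis. Adam25 had 0.71, 0.59 and 0.81, with a mean of 0.70 ± 0.11 (SD, n = 3). Adam5 had -0.50, -0.50 and -0.38, with a mean of -0.46, which was -0.15 and not called after the narrow neighbour correction (limma adjusted p = 0.108) and -0.27 after the wide one. Adam21 had -0.22, -0.45 and -0.20, and Adam39 had -0.20, -0.25 and -0.40. Their means of -0.29 and -0.28 kept 1 sign on all arrays and lost their calls in several settings. Adam21 lost its call with 0 kept, without moderation, at the threshold of 0.01 and after the wide neighbour correction (-0.078). The narrow one gave 0 for Adam21 because it subtracted the probe's own ratio. Adam39 lost its call without array 3 (-0.22, limma adjusted p = 0.0883), with 0 kept (limma adjusted p = 0.0523) and without moderation. It also lost it after the narrow neighbour correction (limma adjusted p = 0.0789), with -0.18 after the wide one. Adam30 had a mean of -0.14 and did not pass, but was called at -0.42 and -0.27 after the neighbour corrections.

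Of the ADAMTS family only ADAMTS-like proteins, which lack the catalytic domain, had values on all arrays. Adamtsl1 had a mean of -0.11 and did not pass. Adamtsl5 was called positive at 0.36, but this is a mean over probes that disagree: 1 probe had 1.20, 1.44 and 1.22, while the others had means of -0.12 and -0.088 and did not pass. With the median of the probes the mean was -0.083, and with the probe of the smallest SD it was -0.12. The narrow neighbour correction gave 0.24.

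**Figure D3:**
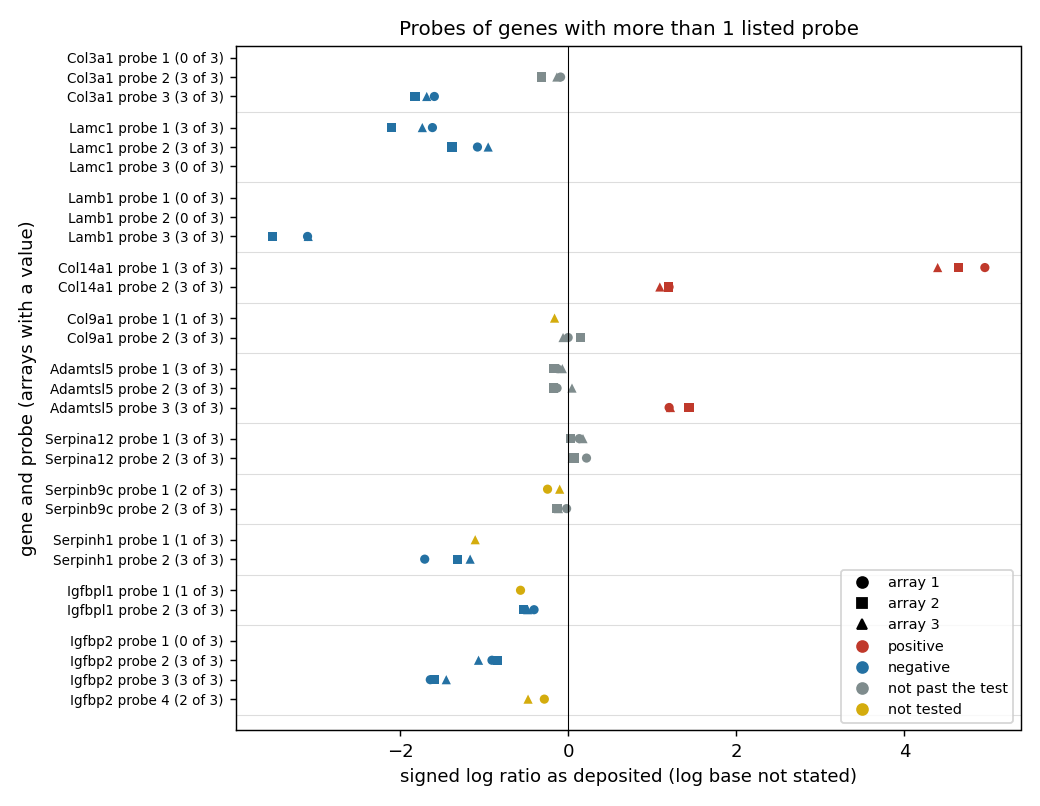
Signed log ratio of every listed probe of the genes with more than 1 listed probe on arrays 1 to 3 (circle, square, triangle), coloured by the limma call of the probe, with the number of arrays that gave a value. The Col14a1 probes differ in size at 4.66 and 1.16, and 1 Adamtsl5 probe at 1.29 stands apart from the others at -0.12 and -0.088.

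Clade A serpins, a clade of mostly secreted inhibitors of plasma, were positive or not past the test. Serpina3a, of the antichymotrypsin family, had 1.58, 1.26 and 1.19, with a mean of 1.34 ± 0.21 (SD, n = 3). Serpina3i, of the same family, had 0.48, 0.61 and 0.59, with a mean of 0.56 ± 0.071 (SD, n = 3). The mouse family has many near-identical copies, so the member behind each ratio is uncertain. Serpina9, known from germinal centre B cells, had a mean of 0.15 and did not pass, although it was called with the arrays centred on their medians (0.17, limma adjusted p = 0.0498) and without array 2 (0.20, limma adjusted p = 0.0429). Serpina12, the adipose tissue protein vaspin, had a mean of 0.11 over its pair of probes, which lay at 0.11 each, and did not pass. Of 4 hepatocyte markers on the array Fgb was at 0 on at least 1 array and the other 3 were positive, from 0.37 for Ambp to 2.36 for Apoh. Their part in the serpin ratios was not tested.

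Clade B serpins act inside cells. Serpinb1a, an inhibitor of neutrophil elastase and related granule proteases, had 0.93, 1.04 and 1.13, with a mean of 1.03 ± 0.10 (SD, n = 3), or 0.53 after the narrow neighbour correction. All 3 measured neutrophil markers lay on the same side, from 1.37 for Csf3r to 5.34 for Ngp, with Mpo at 0 on at least 1 array. Their part in the Serpinb1a ratio was not tested. Serpinb9g had -1.03, -1.02 and -0.97, and Serpinb9b had -0.73, -0.86 and -0.64. These are mouse relatives of the granzyme B inhibitor Serpinb9, and their means were -1.01 ± 0.031 and -0.74 ± 0.11 (SD, n = 3), the latter -0.42 after the narrow neighbour correction. Serpinb9c, of the same cluster, had a mean of -0.088 and did not pass, but was called with 0 kept (-0.10, limma adjusted p = 0.0428) and after the wide neighbour correction (-0.22). Related copies can share signal here too. Trophoblast markers were negative for 5 of 5 measured genes, from -2.61 for Ctsm to -0.30 for Tpbpa, with Cts7 at 0 on at least 1 array, and their part in the Serpinb9 ratios was not tested.

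IGF binding proteins held both extremes of the regulators. Igfbp3, the main carrier of insulin-like growth factors in blood, had 3.56, 3.65 and 3.41, with a mean of 3.54 ± 0.12 (SD, n = 3) and a limma adjusted p of 5.93e-08. This is 11.6-fold in base 2 or 34.4-fold in natural logs, on a single probe. Igfbp6, which binds IGF-II in preference, had -2.35, -2.82 and -2.24, with a mean of -2.47 ± 0.30 (SD, n = 3). The values of these relatives were on opposite sides of 0 on every array. Igfbp2, a binding protein of fetal tissue and tumour cells, had -1.27, -1.22 and -1.26. Its probes were called at -0.94 and -1.56, another had -0.28 and -0.48 on arrays 1 and 3 and 0 on array 2, and the fourth, which the annotation assigns to the same transcript accession as the probe at -0.94, held 0 on every array. The mean of -1.25 ± 0.028 (SD, n = 3) was -0.69 with 0 kept and -0.62 after the narrow neighbour correction. Igfbp5, a binding protein that adheres to matrix, had 0.61, 0.76 and 0.30. Its mean of 0.56 ± 0.24 (SD, n = 3) was 1.09 and 1.06 after the neighbour corrections and lost its call without moderation (adjusted p = 0.0924) and with 0 kept (limma adjusted p = 0.0649). Igfbpl1, an IGF binding protein-like gene, had -0.41, -0.53 and -0.48, with a mean of -0.47. Its call ended with 0 kept (-0.33, limma adjusted p = 0.0606) and after the narrow and wide neighbour corrections (-0.054 and -0.031).

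The 27 listed genes without a value on all arrays include some known as abundant in connective tissue, such as Sparc and Col5a2. No array gave a value for 17 of them: Adam1b, Adam2, Adam26a, Adam26b, Col16a1, Col19a1, Col23a1, Col5a2, Col8a1, Igfbp7, Lamb2, Mmp7, Mmp9, Serpinb7, Sparc, Thbs3 and Timp4. A value on 1 array was present for Mmp11 (-1.30, array 1), Adam15 (-0.52, array 2), Serpina1f (0.32, array 1) and Adamts5 (0.016, array 3). On 2 arrays, Mmp10, a stromelysin, had -2.17 and -1.96 (arrays 1 and 2), Serpinf1, an inhibitor of blood vessel growth, -0.92 and -0.70 (arrays 1 and 2), and Lamb3, a laminin chain of epithelia, 1.28 and 0.61 (arrays 1 and 3). Igfbp4 had -0.19 and -0.021, Serpina1d 0.14 and -0.060, and Serpinb5 -0.097 and 0.091. None of these was tested.

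Genes that work with the members did not follow 1 direction. In a list of collagen processing genes 4 were measured, of which the lysyl hydroxylases Plod1 (-1.02) and Plod3 (-0.82) were called negative and the collagen galactosyltransferase Colgalt1 (-0.046) did not pass. The fourth, Itgb1bp1 (0.12, not past the test), is an adaptor that binds an integrin tail and no collagen enzyme. Other matrix glycoproteins and proteoglycans were called negative in 6 and positive in 6 of 14 genes, with a median of -0.063. Against a 1.5-fold change in base 2, 6 were called negative and 3 positive, where 9.58% and 10.3% of all genes were called. On the negative side were the peroxidase Pxdn, which crosslinks type IV collagen (-3.11), and the matricellular protein Ccn4 (-2.98), and on the positive side the calcium-binding glycoproteins Smoc2 (2.51) and Spock3 (2.40). Among 7 matrix receptors 4 were negative, 2 positive and 1 not past the test. The positive calls numbered 1 without array 2, without array 3, without moderation, at the threshold of 0.01 and against a 1.5-fold change. Negative calls numbered 3 without array 1, without array 2, at 0.01 and after the narrow neighbour correction. They numbered 2 without moderation and with 0 kept, 0 against a 1.5-fold change, and 5 with the probe of the smallest SD. Itga9, an integrin chain that binds tenascin and osteopontin, had 3.95, 3.80 and 3.70 on arrays 1 to 3. Itgb6 had -0.69, Itga7 -0.51 and the common chain Itgb1 -0.34, whose call ended with 0 kept (limma adjusted p = 0.0841), without moderation (adjusted p = 0.112) and after the narrow neighbour correction.

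A list of other proteases of matrix and membrane, which also holds the MMP inducer Bsg, had 2 positive and 2 negative calls among 6 measured genes. Adamdec1, an ADAM-like protease of macrophages and dendritic cells, had a mean of 5.69 and the lysosomal protease Ctss 1.35. Bsg, which is no protease, had -1.04, and the lysosomal protease Ctsh had -0.48, whose call ended without moderation (adjusted p = 0.0599). From the list of coagulation and complement genes around the serpins, the coagulation protease F11 was positive at 0.65, the thrombin receptor F2r negative at -0.58, and the complement protease C1ra did not pass at -0.077, except without array 2 (-0.20, limma adjusted p = 0.0439). The granulocyte and cytotoxic proteases had 0 genes in the annotation used. Of 5 genes of the insulin-like growth factor list on the array, Igfals had no value on at least 1 array and the 4 measured were called negative: the mRNA-binding protein Igf2bp1 at -1.92, the receptor Igf1r at -0.92, Igf2bp3 at -0.80 and Pappa2, a protease that cuts IGF binding proteins, at -0.38. With 0 kept the calls of Igf1r (limma adjusted p = 0.111) and Igf2bp3 (limma adjusted p = 0.0934) ended, and that of Pappa2 ended without moderation (adjusted p = 0.0562) and after both neighbour corrections. In the transforming growth factor beta list 2 of 7 were negative, 1 positive and 4 not past the test, with the latent factor binding protein Ltbp3 at -2.36, Tgif1 at -1.37, the co-receptor Eng at 0.92 and Tgfbr1 at 0.20, which did not pass. With each array centred on its median Tgfbr1 was called (0.23, limma adjusted p = 0.0472), and the list held 3 positive calls. Tgfbr1 was also called without array 2 (0.32, limma adjusted p = 0.00926), where the list held 3 negative and 2 positive calls, and after both neighbour corrections, where 2 were positive. The call of Eng ended with 0 kept (limma adjusted p = 0.0607) and without moderation (adjusted p = 0.0878).

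Markers of mesenchymal and endothelial cells lay on both sides of 0. Of 4 measured fibroblast markers 3 were negative and 1 positive, from -3.29 for the transcription factor Twist2 to 0.61 for the receptor Pdgfrb, with Tcf21 at 0 on at least 1 array. Prrx1 lost its call with the probe of the smallest SD (-0.19, limma adjusted p = 0.0546). Endothelial markers were positive in 3 and negative in 1 of 4 genes, from -0.23 for Flt1 to 2.97 for Esam. The calls of Flt1 and Ramp2 (0.19) ended without array 1 (limma adjusted p = 0.0537 and 0.125) and without array 3 (limma adjusted p = 0.102 and 0.190), which left 2 positive and 0 negative, and Flt1 was 0.32 with the probe of the smallest SD. Of 4 measured smooth muscle markers the myosin Myh11 was positive at 2.27 and 3 missed the test, although Acta2, with a mean of 0.041, was called without moderation (adjusted p = 0.0376), with 0 kept (limma adjusted p = 0.0338), at 0.64 with the probe of the smallest SD and at -0.42 and -0.19 after the neighbour corrections, and Tagln, Cnn1, Des and Mylk were at 0 on at least 1 array. Of 5 lymphoid stroma markers on the array only Cxcl14 had values on all arrays, with a mean of -0.30 whose call ended with 0 kept (-0.15, limma adjusted p = 0.0647). The part of these cell types in the matrix ratios was not tested.

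**Figure D4:**
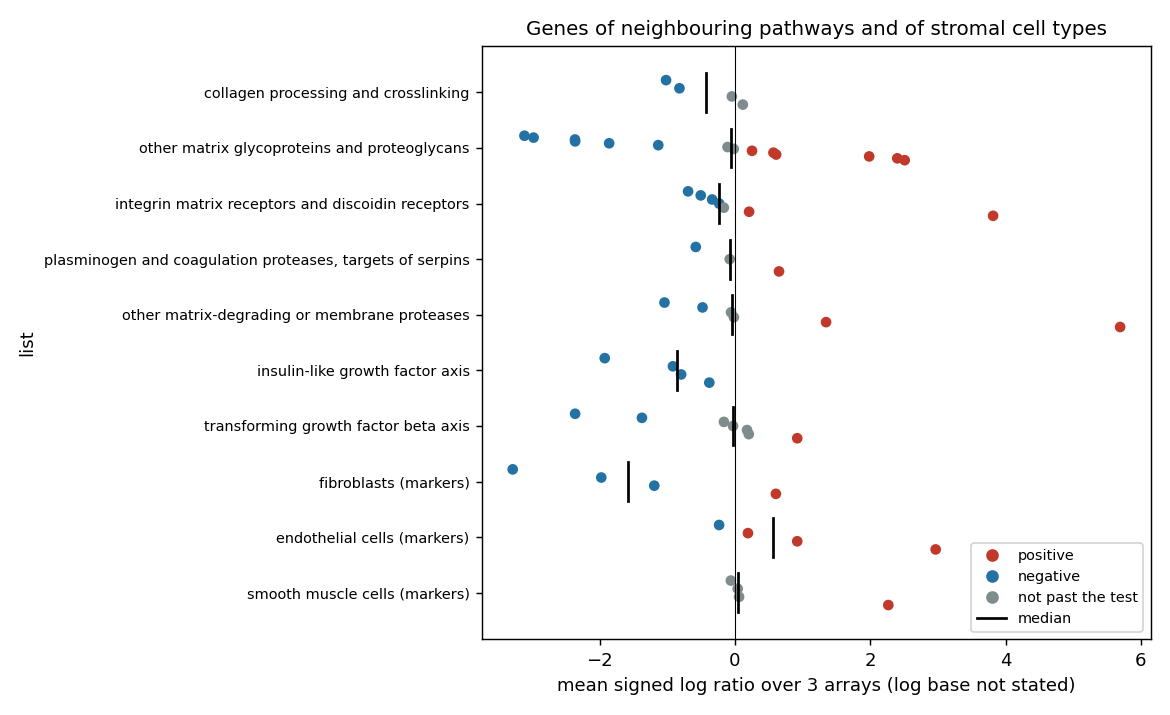
Mean signed log ratio over 3 arrays of each measured gene in 7 lists of neighbouring pathways and 3 lists of stromal cell markers, coloured by the limma call, with the median of each list as a black line. Itga9 at 3.82 and Adamdec1 at 5.69 stand far to the right of their lists. All 4 measured genes of the insulin-like growth factor axis list, none of them a growth factor, lie left of 0.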

How the data were processed

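The authors deposited 1 table of signed log ratios, or log fold values, of 16273 probes on 3 dual-colour arrays. Per the labels' protocols cRNA came from a single amplification round, and image processing, background correction, normalization, log base, numerator and centring are not given in the sources used. Values were tested as deposited, with folds given for both likely bases. Signal over background could not be read from ratios, and the number of arrays limits the precision.

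Exact 0 was read as no measurement. Gene names came from the platform annotation (12336 probes with 1 symbol, 61 with several, 3876 unnamed here). The RefSeq IDs of 12228 probes matched, and 0 symbols changed. Probes with values on all 3 arrays were averaged per gene. The mean ratio per gene was set against 0 by limma (version 3.58.1, R 4.3.3; intercept fit, moderated variance, two-sided, Benjamini-Hochberg over 6077 genes, adjusted p under 0.05), after the code was tested on simulated data. The members, role classes, lists and alternatives were chosen with earlier results of these data known. Values per array are given for up to 3 members with the highest and 3 with the lowest called means in each class with the same sign on all arrays, other members are given by mean and call, and up to 4 genes of each list are named by absolute mean. Some further per-array and probe values were added after they were seen. Alternatives covered scaling, moderation, thresholds, zeros, probe summary, neighbour correction and leaving out each array. Figures used matplotlib 3.10.9 in Python 3.11.15.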

Additional observations from a re-analysis of the deposited data

How the results depend on the processing

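The count of 24 negative members stayed within 1.5 times under the 16 alternatives (16 to 25). That of 13 positive members did so under 15 of them (9 to 14). The exception was the test against a 1.5-fold change in base 2, with 6. Tested members numbered 72 with 0 kept and 51 with probes measured on at least 2 arrays, so these counts are not like for like. With 0 kept, 26.4% of members were called negative, beside 20.8% of all genes, a narrower gap than the reported 53.3% beside 37.1%. Positive calls there were 13.9% of members, beside 20.1% of all genes. With probes measured on at least 2 arrays, 49% of members were negative, beside 36% of all genes. Without each array in turn the counts were 22 to 23 negative and 12 to 13 positive. No paired analysis was possible because all arrays form 1 group. Among the members, up to 4 genes of each pathway list and the fibroblast, endothelial, smooth muscle, lymphoid stroma and epithelial markers, signs turned for genes near 0 or with discordant probes: after the narrow neighbour correction for Adamtsl1 (0.095), Loxhd1 (-0.011), Loxl4 (0.041), Itgb1bp1 (-0.13), C1ra (0.031), Smtn (0.092), Acta2 (-0.42, and -0.19 after the wide one) and Pappa2 (0.00041), for Adamtsl5 with the median of probes (-0.083) or the probe of the smallest SD (-0.12), for Flt1 with the latter (0.32), and for Col9a1 with 0 kept (-0.012). They also turned on leaving out an array for Col9a1 (-0.030 to 0.076), Loxhd1 (-0.057 to 0.12), Smtn (-0.14 to 0.021) and Colgalt1 (-0.14 to 0.039). The cause was not tested. Members losing their call numbered 15 against a 1.5-fold change, 9 without moderation, 9 with 0 kept, 7 after the narrow and 4 after the wide neighbour correction. Of the 9 with 0 kept, only Igfbpl1 had a changed mean. The 7 after the narrow correction include Adam21 and Mmp23, which it set to 0 by their own ratios. Reading the values as natural logs changes fold sizes and no call against 0.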
